A study of Mus musculus with 18 samples.

Results

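The 10 neuronal immediate early genes *Fos*, *Fosb*, *Junb*, *Egr1*, *Egr3*, *Arc*, *Npas4*, *Nr4a1*, *Ier2* and *Dusp1* were followed in RNA and in ribosome footprints of the mouse cerebellum, with attention to how far mice of the same genotype differed. The genes were chosen by symbol, whatever their values. All 10 were found among the 54752 genes of the RNA files and the 22523 genes of the footprint files, and all 10 passed the filters on low counts in each of the 8 comparisons.

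Immediate early genes are transcribed soon after a neuron is stimulated, without the need for new protein, through transcription factors such as CREB and SRF that are already bound or present and are activated by calcium and MAP kinase signaling. Many of their products are transcription factors that act on later genes, and others act at synapses or switch the signaling off again. Their transcripts and proteins are short-lived, so their level in a tissue follows what happened to the animal shortly before the tissue was taken.

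RNA-seq and ribosome profiling, in which fragments covered by ribosomes are sequenced, were performed on the cerebellum of 3-week-old mice, with 3 mice for each of 3 genotypes in each assay. The study asks what the loss of either of a pair of related GTPases that act on stalled ribosomes does to neurons. B6J mice served as wild-type controls. B6J.*Gtpbp1*-/- mice carry a targeted *Gtpbp1* allele that holds PGK-Neo and lacks exon 4 and part of exon 3, bred onto C57BL/6J, and B6J-*Gtpbp2*-/- mice are homozygous for nmf205, a chemically induced null point mutation of *Gtpbp2*. All mice, controls included, carry the hypomorphic C57BL/6J allele of n-Tr20, a brain-expressed tRNA-Arg-UCU gene that serves the codon AGA, so no group has an intact supply of this tRNA. The libraries came from whole tissue, in which fewer cells of a type and less RNA per cell cannot be told apart. RNA libraries are labelled as batch 1 and footprint libraries as batch 2, so that assay and batch cannot be told apart either.

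The mutated genes were read first as a check of the labels. *Gtpbp1* RNA was at 71.0, 77.8 and 66.7 CPM (counts scaled to library size, normalized by the TMM method of edgeR) in B6J mice and at 44.0, 41.7 and 43.9 CPM in B6J.*Gtpbp1*-/- mice. B6J-*Gtpbp2*-/- mice had 58.7, 72.2 and 65.7 CPM of it. *Gtpbp2* RNA was at 85.9, 74.0 and 88.1 CPM in B6J and at 65.5, 75.4 and 72.7 CPM in B6J-*Gtpbp2*-/- mice, with 109, 100.5 and 104 CPM for B6J.*Gtpbp1*-/-. The 3 B6J.*Gtpbp1*-/- mice were thus below all B6J mice for *Gtpbp1*, and of the *Gtpbp2* values, those of B6J-*Gtpbp2*-/- and B6J mice overlapped, as a point mutation need not remove the transcript. The log2 fold change of *Gtpbp1* RNA in B6J.*Gtpbp1*-/- mice was -0.73 (adjusted p 5.9e-05), but -0.29 (adjusted p 0.100225) with an offset for effective transcript length, which kallisto estimates per library, in a range over alternatives from 2.7e-13 to 0.100225. *Gtpbp1* footprints were at 73.6, 117 and 84.9 CPM in B6J mice, 32.0, 25.5 and 35.6 CPM for B6J.*Gtpbp1*-/- and 79.4, 66.8 and 62.1 CPM for B6J-*Gtpbp2*-/-. *Gtpbp2* footprints were at 44.8, 36.1 and 38.5 CPM in B6J and at 28.9, 26.4 and 7.54 CPM in B6J-*Gtpbp2*-/- mice, without overlap, and at 36.2, 43.3 and 58.3 CPM for B6J.*Gtpbp1*-/-. *Gtpbp2* was not called in B6J-*Gtpbp2*-/- mice. In RNA its log2 fold change was -0.22 (adjusted p 0.190, over alternatives from 0.111 to 0.396), and it turned to 0.32 with the offset for transcript length. In footprints it was -0.97 (adjusted p 0.321, at the lowest 0.118 over alternatives). Leaving out a mouse gave between -1.32 and -0.53 in footprints, the latter without B6J-*Gtpbp2*-/- replicate 3. Total counts were between 37794598 and 52114400 per RNA library and between 3630823 and 10442573 per footprint library.

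Replicate numbers are those of the labels, and the RNA and footprint libraries of a number need not come from the same mouse. *Ddx3y*, a gene of the Y chromosome, had 6574 counts in RNA and 25 in footprints of B6J.*Gtpbp1*-/- replicate 2, and 0 counts in RNA and 379 in footprints of B6J replicate 1. These numbers therefore do not join a mouse's RNA to its footprints, and values of the assays are compared below as groups.

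Cerebellar markers were present and forebrain markers were low. The summed level of 6 granule cell markers was between 4779.8 and 4966 CPM in B6J RNA and between 2906 and 3436 CPM in the RNA of both mutants, with *Cbln3* the most abundant and none at 0. Of these 6 markers, 6 fell in B6J.*Gtpbp1*-/- RNA (4 without its replicate 1 or 2) and 5 fell in B6J-*Gtpbp2*-/- RNA, where the count was 3 without B6J replicate 1. The 5 Purkinje cell markers summed to between 5366 and 8827 CPM over the RNA libraries, led by *Itpr1*. The 5 forebrain neuron markers summed to between 9.48 and 14.4 CPM, led by *Neurod6*, with *Emx1* at 0 in 3 RNA libraries. The 5 microglial markers, led by *Csf1r*, summed to between 71.6 and 74.2 CPM in B6J RNA and to between 121 and 145 CPM in the RNA of both mutants, and 3 of the 5 rose in each mutant. In footprints 5 granule cell markers fell in B6J-*Gtpbp2*-/- mice, 3 without replicate 1 or 2 of that genotype, and for B6J.*Gtpbp1*-/- edgeR and DESeq2 called 0, with 3 at an unadjusted p under 0.05. Over all genes tested in footprints, 230 of 13797 fell for B6J-*Gtpbp2*-/-. For B6J.*Gtpbp1*-/- 24 of 13956 fell, and 12.6% were at an unadjusted p under 0.05. The part of these marker shifts in the values below was not tested.

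The other marker lists were read in RNA in the same way. Over all genes tested in RNA, 1449 of 24577 were called higher and 1949 lower for B6J.*Gtpbp1*-/-. For B6J-*Gtpbp2*-/- these were 898 and 1248 of 24859. Of the Purkinje cell markers 1 fell for B6J.*Gtpbp1*-/- and 3 for B6J-*Gtpbp2*-/-, but 0 in either without B6J replicate 1 or 2, 3 and 4 without B6J replicate 3, and 0 without B6J.*Gtpbp1*-/- replicate 2 in the former or B6J-*Gtpbp2*-/- replicate 3 in the latter. Of the forebrain markers edgeR and DESeq2 called 0 in each mutant, with 0 and 1 at an unadjusted p under 0.05. Of 4 markers of astrocytes and Bergmann glia, led by *Slc1a3* in a sum of 2595 to 3422 CPM, 1 rose and 1 fell in each mutant, the fall not called without B6J replicate 2 or the mutants' replicate 2, nor in B6J-*Gtpbp2*-/- without its replicate 3 or B6J replicate 1. All 4 oligodendrocyte markers, led by *Mbp* in a sum of 6159 to 10312 CPM, fell in B6J.*Gtpbp1*-/- mice (1 without B6J replicate 1, 2 without replicate 2 or 3 of the mutant), and for B6J-*Gtpbp2*-/- edgeR and DESeq2 called 0, with 0 at an unadjusted p under 0.05. Of 4 endothelial markers, led by *Slco1a4* in a sum of 154 to 270 CPM, 3 rose in each mutant, 1 in B6J-*Gtpbp2*-/- without its replicate 3 or B6J replicate 2. Red cell markers, led by *Hbb-bs*, summed to between 327 and 1819 CPM, and 1 rose in B6J.*Gtpbp1*-/- mice (0 without B6J replicate 3 or B6J.*Gtpbp1*-/- replicate 1, 3 without B6J replicate 1). Markers of choroid plexus (*Ttr*, 65.1 to 1739 CPM summed), of bone and muscle (*Col1a1*, 23.8 to 48.5 CPM) and of meningeal fibroblasts (*Dcn*, 42.9 to 61.5 CPM) had 0 calls by edgeR and by DESeq2 in each mutant, and 0 at an unadjusted p under 0.05. DESeq2 called the same number of markers as edgeR or 1 more in each of these lists in RNA. In footprints the bone and muscle markers, led by *Col1a1*, summed to between 117 and 550.3 CPM in B6J, 869.5 and 1711 CPM for B6J.*Gtpbp1*-/- and 212 and 549 CPM for B6J-*Gtpbp2*-/-, with *Ibsp* or *Myh1* at 0 in 3 libraries. Of the 5 tested for B6J.*Gtpbp1*-/- and 4 tested for B6J-*Gtpbp2*-/- edgeR called 0, with 5 and 1 at an unadjusted p under 0.05, and DESeq2 called 1 in each, *Myh1* higher in the former and *Acta1* lower in the latter. Without B6J replicate 3 edgeR called 2 higher in the former, *Ibsp* and *Myh1*. Between the mutants edgeR called 0 and DESeq2 3, *Col1a1*, *Bglap* and *Acta1*, with 5 at an unadjusted p under 0.05. Over all 14142 genes these were 0%, 0.643% and 10.8%. *Acta1* and *Bglap* were chosen after their values were seen. In footprints edgeR called 1 microglial and 1 endothelial marker higher in each mutant, where DESeq2 called 3 and 2 for B6J.*Gtpbp1*-/- and 1 and 3 for B6J-*Gtpbp2*-/-, and 5 and 2, then 2 and 4, were at an unadjusted p under 0.05. For B6J.*Gtpbp1*-/- both counts were 0 without replicate 1 of that genotype, B6J replicate 1 or B6J replicate 2, and the microglial count was 2 without B6J.*Gtpbp1*-/- replicate 2. For B6J-*Gtpbp2*-/- the endothelial count was 2 without B6J replicate 3. The Purkinje cell markers summed to between 5907 and 12412 CPM in footprints of B6J, 6519 and 12351 CPM for B6J.*Gtpbp1*-/- and 11489 and 13913 CPM for B6J-*Gtpbp2*-/-. Of these edgeR called 0 in either mutant, with 1 at an unadjusted p under 0.05 in each. For B6J-*Gtpbp2*-/- DESeq2 called 1 higher, *Itpr1*, and without B6J replicate 3 edgeR called 2 higher, whereas the Purkinje cell markers called in RNA were lower. Of the astrocyte and Bergmann glia markers edgeR called 0 and DESeq2 1 higher in each mutant, *Gfap*, which was chosen after its values were seen, with 2 and 1 at an unadjusted p under 0.05. Without B6J.*Gtpbp1*-/- replicate 2 edgeR called it in that mutant. Of the red cell markers in footprints edgeR called 0 in each mutant and DESeq2 1 higher for B6J.*Gtpbp1*-/-, *Hbb-bs*, with 1 and 0 at an unadjusted p under 0.05.

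Among the 10 genes, *Fos* had the highest level in RNA per transcript length, with 78.7 ± 27.8 TPM (mean ± SD, n = 3) in B6J mice. *Dusp1* with 56.2 ± 11.2 TPM and *Nr4a1* with 53.6 ± 18.0 TPM came next and overlapped *Fos* in range. *Egr1* with 20.4 ± 4.51 TPM and *Ier2* with 19.7 ± 2.80 TPM did not differ beyond their spread. *Junb* with 6.54 ± 0.972 TPM and *Arc* with 6.20 ± 1.19 TPM were likewise level with each other, *Npas4* was at 3.72 ± 1.00 TPM and *Fosb* at 2.14 ± 0.854 TPM. *Egr3* was lowest, at 0.488 ± 0.371 TPM. In footprints per kilobase of coding sequence the order of means in B6J mice was led by *Fos* at 90.2 ± 97.7 CPM per kb and *Dusp1* at 77.0 ± 57.2 CPM per kb. These 2 overlapped, with ranges of 12.2 to 199.7 and 28.0 to 139.9 CPM per kb, and the SD of *Fos* exceeded its mean. The order ended with *Fosb* at 1.45 ± 1.23 and *Egr3* at 1.29 ± 1.22 CPM per kb.

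Each pair of genotypes was tested over all genes with edgeR's quasi-likelihood test, with p-values adjusted by the Benjamini-Hochberg method, and a gene was called at an adjusted p of at most 0.05. In RNA of B6J.*Gtpbp1*-/- against B6J mice 2 of the 10 genes were called, *Egr1* and *Ier2*, both higher, where 13.8% of all 24577 genes tested were called and 5.9% were called higher. In RNA of B6J-*Gtpbp2*-/- against B6J mice 1 of the 10 was called, *Egr1*, where 8.63% of 24859 genes were called and 3.61% were called higher. These 2 comparisons share the B6J mice. The median log2 fold change of the 10 genes was 0.69 for B6J.*Gtpbp1*-/- and 0.96 in B6J-*Gtpbp2*-/- mice, beside 0.03 over all genes tested in either comparison. In each mutant 9 of the 10 genes had a fold change above 0, all but *Dusp1*, and under every alternative tried this count was 8 or 9. At an unadjusted p under 0.05 were 6 and 5 of the 10, the 6 including *Dusp1*, which was lower, beside 26.3% and 22.5% of all genes tested. The number called depended on single mice. In B6J.*Gtpbp1*-/- it was 1 without B6J replicate 1, without B6J replicate 2 and without B6J.*Gtpbp1*-/- replicate 3, and 3 without any of the other mice, while between 8.002% and 15.8% of all genes were called. For B6J-*Gtpbp2*-/- it was 2 without B6J replicate 3, 3 without B6J-*Gtpbp2*-/- replicate 3 and 1 without any of the other mice, with between 3.92% and 9.81% of all genes called.

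In the other comparisons of RNA and of footprints edgeR called no gene of the 10. Between the mutants in RNA, edgeR called 0 of the 10 and DESeq2 0, with 1 at an unadjusted p under 0.05 (3.57% of all genes), where edgeR called 0.0595% of 25190 genes. In footprints of B6J.*Gtpbp1*-/- against B6J mice, edgeR and DESeq2 called 0, with 1 at an unadjusted p under 0.05 (12.6% of all genes), where edgeR called 0.745% of 13956 genes. In footprints of B6J-*Gtpbp2*-/- against B6J mice, edgeR and DESeq2 called 0, with 0 at an unadjusted p under 0.05 (17.1% of all genes), where edgeR called 2.94% of 13797 genes. Without B6J replicate 3 edgeR called 1 of the 10, *Junb*, where it called 4.54% of 13634 genes. Between the mutants in footprints, edgeR and DESeq2 called 0, with 2 at an unadjusted p under 0.05 (10.8% of all genes), where edgeR called 0% of 14142 genes. The median log2 fold change of the 10 genes in footprints was 0.26 for B6J.*Gtpbp1*-/- and 0.35 in B6J-*Gtpbp2*-/- mice, beside 0.01 over all genes in either comparison. Of the 10 genes 8 and 6 had a fold change above 0, beside 51.6% and 50.6% of all genes tested. When a mouse was left out the counts of the 10 were 5 to 10 and 3 to 10, lowest without B6J replicate 2 and highest without B6J replicate 3. All B6J-*Gtpbp2*-/- mice of the footprints were female and B6J replicate 3 was the only female B6J mouse, so a term for sex left this mouse as the whole control group. With that term *Fos*, *Fosb*, *Junb*, *Nr4a1* and *Ier2* turned below 0 and 1 of the 10 genes was above 0. These values set the mutant beside 1 mouse, so the part of sex in that comparison was not tested.

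Mice of a mutant all lay above the 3 B6J mice in RNA for *Egr1*, *Egr3* and *Ier2* in B6J.*Gtpbp1*-/- and for *Fosb*, *Egr1* and *Egr3* in B6J-*Gtpbp2*-/- mice. *Dusp1* alone of the 10 had all B6J.*Gtpbp1*-/- mice below all B6J mice. Of all 26202 genes, 30.9% had no overlap between B6J.*Gtpbp1*-/- and B6J mice in either direction and 15.9% lay higher, and 28.0% had none between B6J-*Gtpbp2*-/- and B6J mice, with 14.5% higher. Between the mutants *Egr3* alone of the 10 had no overlap, lower in B6J.*Gtpbp1*-/- mice, as had 8.91% of all genes in either direction. This held in CPM and not in TPM, where *Egr3* was at 1.24, 3.83 and 1.18 for B6J.*Gtpbp1*-/- and at 1.52, 1.87 and 2.30 for B6J-*Gtpbp2*-/-. In footprints *Egr3* was higher in all B6J.*Gtpbp1*-/- than in all B6J mice (17.8% of 14304 genes in either direction), none of the 10 was without overlap between B6J-*Gtpbp2*-/- and B6J mice (22.4%), and *Egr1* and *Egr3* were between the mutants (16.2%).

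**Figure D1:**
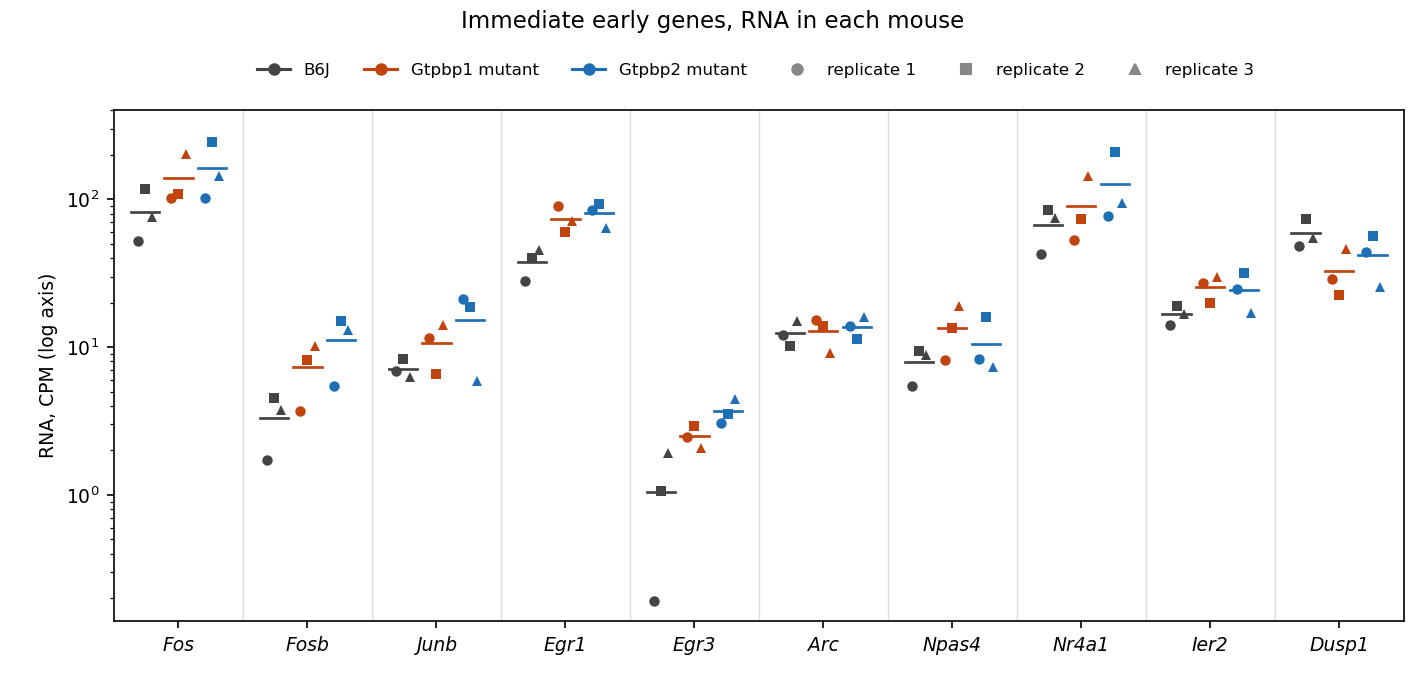
RNA of the 10 immediate early genes in CPM (log axis) for each of 9 mice, by genotype (color) and replicate number of the label (symbol), with a line at the mean of each genotype. *Egr1* is above all 3 B6J mice (28.0 to 45.1 CPM) in all 6 mutant mice (59.9 to 93.02 CPM), whereas the *Fos* values of B6J (52.5 to 117 CPM) overlap those of both mutants (103 to 243 CPM).

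*Fos*, *Fosb* and *Junb* encode subunits of AP-1, a dimer of a Fos and a Jun protein. *Fos* RNA was at 52.5, 117 and 75.7 CPM in B6J replicates 1, 2 and 3, at 103, 109.5 and 203 CPM for B6J.*Gtpbp1*-/- and at 103, 243 and 144 CPM in B6J-*Gtpbp2*-/- mice. B6J replicate 2 lay above 3 of the 6 mutant mice, and the highest mice of the mutants, B6J.*Gtpbp1*-/- replicate 3 and B6J-*Gtpbp2*-/- replicate 2, each lay above the others of their genotype. The log2 fold change against B6J was 0.76 (SE 0.450, adjusted p 0.397) for B6J.*Gtpbp1*-/- and 1.00 (SE 0.475, adjusted p 0.325) in B6J-*Gtpbp2*-/- mice, and neither passed. When a mouse was left out the former ran from 0.38 to 1.11 and the latter from 0.59 to 1.34. With the replicate number as a block, which assumes pairs the labels do not state, the latter was called (0.98, adjusted p 6.9e-05, among alternatives up to 0.585). Footprints on *Fos* were at 66.9, 13.9 and 228 CPM in B6J, at 143, 121 and 49.1 CPM for B6J.*Gtpbp1*-/- and at 120.2, 172 and 109 CPM in B6J-*Gtpbp2*-/- mice. Both the lowest and the highest of the 9 mice were B6J mice, replicates 2 and 3, and all mutant mice lay between them. The footprint fold change was 0.02 (SE 1.06) for B6J.*Gtpbp1*-/- and 0.35 (SE 1.02) in B6J-*Gtpbp2*-/- mice, on the log2 scale. Without B6J replicate 2 these were -0.50 and -0.16, and without B6J replicate 3 they were 1.37 and 1.72. The former was also below 0 without B6J replicate 1 (-0.21), B6J.*Gtpbp1*-/- replicate 1 (-0.27) or B6J.*Gtpbp1*-/- replicate 2 (-0.093).

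*Fosb* RNA was lower than *Fos* RNA, at 1.73, 4.49 and 3.78 CPM in B6J, 3.72, 8.17 and 10.1 CPM for B6J.*Gtpbp1*-/- and 5.44, 14.99 and 13.01 CPM in B6J-*Gtpbp2*-/- mice. All B6J-*Gtpbp2*-/- mice were above all B6J mice, and B6J.*Gtpbp1*-/- replicate 1 was within the B6J range. The log2 fold change was 1.14 (SE 0.440, adjusted p 0.143) for B6J.*Gtpbp1*-/- and 1.74 (SE 0.460, adjusted p 0.0617) in B6J-*Gtpbp2*-/- mice, neither of which passed edgeR's test, while DESeq2 called both (adjusted p 0.00990 and 0.0174, among alternatives from 4.3e-05 to 0.440 and from 0.000528 to 0.237). Replicate 1 was the lowest of each mutant, and without it *Fosb* was called in both, at 1.46 (adjusted p 0.0250) without B6J.*Gtpbp1*-/- replicate 1 and at 2.07 (adjusted p 0.00747) without B6J-*Gtpbp2*-/- replicate 1. Only between 2 and 44 footprints were counted on *Fosb* per library, at 1.12, 0.441 and 2.86 CPM in B6J, 6.34, 2.76 and 1.503 CPM for B6J.*Gtpbp1*-/- and 2.81, 3.58 and 2.22 CPM in B6J-*Gtpbp2*-/- mice. The groups overlapped, with log2 fold changes of 1.19 (SE 0.687) and 0.85 (SE 0.664). When a mouse was left out these ran from 0.49 to 2.16 and from 0.43 to 1.82.

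*Junb* RNA was at 6.85, 8.29 and 6.32 CPM in B6J, a narrow range, and at 11.5, 6.54 and 14.2 CPM for B6J.*Gtpbp1*-/- and 21.1, 18.6 and 5.91 CPM in B6J-*Gtpbp2*-/- mice. In each mutant 2 mice were above all B6J mice and the other lay within or below the B6J range. On the log2 scale the fold change was 0.58 (SE 0.245, adjusted p 0.155) for B6J.*Gtpbp1*-/- and 1.09 (SE 0.452, adjusted p 0.221) in B6J-*Gtpbp2*-/- mice. Without the low mouse the gene was called in both, at 0.84 (adjusted p 0.0173) without B6J.*Gtpbp1*-/- replicate 2 and at 1.48 (adjusted p 0.000850) without B6J-*Gtpbp2*-/- replicate 3. With no filter it was called in the former with all mice kept (0.59, adjusted p 0.0102, among alternatives from 0.0102 to 0.501). Footprints on *Junb* were at 15.9, 10.4 and 32.9 CPM in B6J, 27.5, 35.8 and 17.7 CPM for B6J.*Gtpbp1*-/- and 23.9, 24.2 and 34.8 CPM in B6J-*Gtpbp2*-/- mice. B6J replicate 3 was among the highest of the 9 mice and the other B6J mice were the lowest, with log2 fold changes of 0.45 (SE 0.386) and 0.47 (SE 0.363). Without B6J replicate 3 the fold change in B6J-*Gtpbp2*-/- mice was 1.08 (adjusted p 0.0455). When any mouse was left out it ran from 0.15 to 1.05 for B6J.*Gtpbp1*-/- and from 0.17 to 1.08 for B6J-*Gtpbp2*-/-. *Junb* overlaps *Prdx2* on the opposite strand, and the text on the libraries names the TruSeq v2 mRNA kit for RNA without saying whether strand was kept, so reads of one may be counted for the other and the values of *Junb* are uncertain to that extent.

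*Egr1* and *Egr3* encode zinc finger transcription factors that bind GC-rich sites. *Egr1* RNA was at 28.0, 40.0 and 45.1 CPM in B6J, at 90.7, 59.9 and 71.9 CPM for B6J.*Gtpbp1*-/- and at 84.5, 93.02 and 64.1 CPM in B6J-*Gtpbp2*-/- mice. All 6 mutant mice were above all 3 B6J mice, and the mutants overlapped each other. *Egr1* RNA rose by a log2 fold change of 0.98 (SE 0.214, adjusted p 0.0277) for B6J.*Gtpbp1*-/- and of 1.10 (SE 0.197, adjusted p 0.0143) in B6J-*Gtpbp2*-/- mice. The fold change stayed between 0.80 and 1.12 in the former and between 0.92 and 1.25 in the latter when any mouse was left out. The call did not. Without B6J.*Gtpbp1*-/- replicate 3 the adjusted p was 0.0934 and without B6J replicate 2 it was 0.0708 in B6J.*Gtpbp1*-/- mice, and without B6J-*Gtpbp2*-/- replicate 1 it was 0.0526 in B6J-*Gtpbp2*-/- mice. Other alternatives lost the call as well. These were sex as a term (0.95, adjusted p 0.0769) and the replicate number as a block (0.98, adjusted p 0.0768) in the former, and no filter (1.10, adjusted p 0.0882) and the block (1.11, adjusted p 0.0587) in the latter. Over all alternatives the adjusted p ran from 2.1e-07 to 0.0934 in the former and from 2.0e-08 to 0.0882 in the latter. Footprints on *Egr1* were at 72.9, 55.3 and 102 CPM in B6J, 87.9, 115 and 84.7 CPM for B6J.*Gtpbp1*-/- and 53.9, 64.6 and 74.2 CPM in B6J-*Gtpbp2*-/- mice. In footprints B6J overlapped both mutants, and all B6J.*Gtpbp1*-/- mice were above all B6J-*Gtpbp2*-/- mice. Against B6J the footprint fold change was 0.32 (SE 0.235, adjusted p 0.626) for B6J.*Gtpbp1*-/- and -0.27 (SE 0.215, adjusted p 0.571) in B6J-*Gtpbp2*-/- mice, the latter 0.0034 without B6J replicate 3. Between the mutants it was 0.58 (SE 0.195, p 0.0118 by edgeR, adjusted p 0.357), which did not pass.

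*Egr3* had the lowest counts of the 10, between 9 and 239 per RNA library. Its RNA was at 0.192, 1.06 and 1.91 CPM in B6J, at 2.47, 2.91 and 2.09 CPM for B6J.*Gtpbp1*-/- and at 3.05, 3.54 and 4.47 CPM in B6J-*Gtpbp2*-/- mice. In CPM the 3 genotypes did not overlap, and the B6J mice were spread over 9.94-fold. In TPM the mutants overlapped each other. The log2 fold change was 1.24 (SE 0.616, adjusted p 0.252) for B6J.*Gtpbp1*-/- and 1.80 (SE 0.617, adjusted p 0.122) in B6J-*Gtpbp2*-/- mice, and without B6J replicate 3 it was called in both, at 1.99 (adjusted p 0.0324) and 2.57 (adjusted p 0.0305). With all mice kept it was called in the former with no filter (adjusted p 0.00589, among alternatives from 0.00589 to 0.456), and in the latter by DESeq2 (0.00657) and with the replicate number as a block (0.0374), among alternatives from 0.00657 to 0.328. Between the mutants it was -0.56 (SE 0.222, p 0.0268 by edgeR, adjusted p 1.00), and it was 0.10 with an offset for transcript length. The transcripts to which kallisto assigned *Egr3* reads differed between libraries, with between 0% and 91.6% of its estimated counts on protein-coding transcripts. Footprints on *Egr3* were at 2.91, 0 and 1.75 CPM in B6J, 3.32, 7.12 and 7.18 CPM for B6J.*Gtpbp1*-/- and 2.5, 1.38 and 2.22 CPM in B6J-*Gtpbp2*-/- mice, and the 0 of B6J replicate 2 allows up to 0.661 CPM (3 counts, counting error only). All B6J.*Gtpbp1*-/- mice lay above all other mice, as did 9.14% of 14304 genes against B6J mice and 8.56% against B6J-*Gtpbp2*-/- mice. The footprint fold change was 1.90 (SE 0.693, p 0.0170 by edgeR, adjusted p 0.254) against B6J and 1.48 (SE 0.432, p 0.00495 by edgeR, adjusted p 0.297) against B6J-*Gtpbp2*-/- mice, neither of which passed. For B6J-*Gtpbp2*-/- against B6J mice it was 0.40 (SE 0.795), and -0.14 without B6J replicate 2.

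*Npas4* encodes a transcription factor of the bHLH-PAS family that is induced by calcium entry. Its RNA was at 5.42, 9.39 and 8.90 CPM in B6J, 8.16, 13.4 and 18.9 CPM for B6J.*Gtpbp1*-/- and 8.32, 16.0 and 7.37 CPM in B6J-*Gtpbp2*-/- mice. B6J.*Gtpbp1*-/- replicates 2 and 3 and B6J-*Gtpbp2*-/- replicate 2 were above all B6J mice, and the other mutant mice were within the B6J range. On the log2 scale the fold change was 0.77 (SE 0.322, adjusted p 0.178) for B6J.*Gtpbp1*-/- and 0.42 (SE 0.319, adjusted p 0.510) in B6J-*Gtpbp2*-/- mice. It was 1.03 (adjusted p 0.0239) in the former without B6J.*Gtpbp1*-/- replicate 1 and -0.013 in the latter without B6J-*Gtpbp2*-/- replicate 2. With all mice kept the former was called by DESeq2 (adjusted p 0.0221), with no filter (0.000179) and with the replicate number as a block (0.0253), among alternatives from 0.000179 to 0.381. Footprints on *Npas4* were at 8.06, 3.74 and 13.7 CPM in B6J, 6.34, 8.84 and 4.84 CPM for B6J.*Gtpbp1*-/- and 4.53, 12.7 and 3.00 CPM in B6J-*Gtpbp2*-/- mice. The groups overlapped throughout, with log2 fold changes of -0.35 (SE 0.430) and -0.46 (SE 0.582), which were 0.19 and 0.10 without B6J replicate 3.

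*Nr4a1* encodes an orphan nuclear receptor, a transcription factor without a known hormone. Its RNA was at 42.9, 84.7 and 74.5 CPM in B6J, 53.1, 73.3 and 144 CPM for B6J.*Gtpbp1*-/- and 76.7, 209 and 94.0 CPM in B6J-*Gtpbp2*-/- mice. As for *Fos*, B6J.*Gtpbp1*-/- replicate 3 and B6J-*Gtpbp2*-/- replicate 2 stood apart from the other mice of their genotype, which were in or near the B6J range. The log2 fold change was 0.42 (SE 0.508, adjusted p 0.701) for B6J.*Gtpbp1*-/- and 0.91 (SE 0.523, adjusted p 0.415) in B6J-*Gtpbp2*-/- mice, and without those mice it was -0.092 and 0.34. Footprints on *Nr4a1* were at 55.9, 11.5 and 118 CPM in B6J, 86.1, 88.7 and 40.2 CPM for B6J.*Gtpbp1*-/- and 56.3, 130.1 and 56.5 CPM in B6J-*Gtpbp2*-/- mice. B6J spanned 10.3-fold and nearly all of the mutants' range. The footprint fold change was 0.21 (SE 0.830) for B6J.*Gtpbp1*-/- and 0.35 (SE 0.916) in B6J-*Gtpbp2*-/- mice, and without B6J replicate 2 it was -0.28 and -0.14, the latter also -0.14 without B6J-*Gtpbp2*-/- replicate 2.

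*Arc* acts in dendrites, where its protein promotes the removal of AMPA receptors from synapses. *Arc* RNA was at 12.1, 10.1 and 14.9 CPM in B6J, 15.3, 13.9 and 9.09 CPM for B6J.*Gtpbp1*-/- and 13.96, 11.3 and 15.9 CPM in B6J-*Gtpbp2*-/- mice. The 3 genotypes lay over each other. A log2 fold change of 0.04 (SE 0.199, adjusted p 0.927) for B6J.*Gtpbp1*-/- and of 0.14 (SE 0.177, adjusted p 0.710) in B6J-*Gtpbp2*-/- mice was within the spread between mice, and the former was -0.11 without B6J.*Gtpbp1*-/- replicate 1, -0.022 without B6J.*Gtpbp1*-/- replicate 2 and -0.084 without B6J replicate 2. Footprints on *Arc* were at 19.0, 12.996 and 23.8 CPM in B6J, 22.2, 20.4 and 16.2 CPM for B6J.*Gtpbp1*-/- and 20.3, 17.1 and 12.4 CPM in B6J-*Gtpbp2*-/- mice. These overlapped as well, with log2 fold changes of 0.07 (SE 0.272) and -0.19 (SE 0.282), and the signs turned without B6J replicate 2 or B6J.*Gtpbp1*-/- replicate 1 (-0.13 and -0.022) in the former and without B6J replicate 3 (0.039) in the latter.

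*Ier2*, which encodes a nuclear protein of the early response to growth factors, was the other gene called in B6J.*Gtpbp1*-/- mice. Its RNA was at 14.2, 18.9 and 16.8 CPM in B6J, 27.1, 19.8 and 29.8 CPM for B6J.*Gtpbp1*-/- and 24.6, 31.7 and 17.0 CPM in B6J-*Gtpbp2*-/- mice. All B6J.*Gtpbp1*-/- mice were above all B6J mice, replicate 2 by little, and B6J-*Gtpbp2*-/- replicate 3 was within the B6J range. *Ier2* RNA rose by a log2 fold change of 0.62 (SE 0.153, adjusted p 0.0175) in B6J.*Gtpbp1*-/- mice, whereas for B6J-*Gtpbp2*-/- its fold change was 0.56 (SE 0.209, adjusted p 0.146). The mutants were not shown to differ, with 0.06 (SE 0.245, adjusted p 1.00) between them, which was -0.062 without B6J.*Gtpbp1*-/- replicate 3 and -0.15 without B6J-*Gtpbp2*-/- replicate 3. The call in B6J.*Gtpbp1*-/- mice was lost without B6J replicate 1 (0.51, adjusted p 0.0802), without B6J.*Gtpbp1*-/- replicate 1 (0.57, adjusted p 0.0740) and without B6J.*Gtpbp1*-/- replicate 3 (0.49, adjusted p 0.0747). It was also lost with all 9 libraries in one model (0.62, adjusted p 0.0924) and with the replicate number as a block (0.61, adjusted p 0.0550), in a range over alternatives from 1.5e-05 to 0.0924. For B6J-*Gtpbp2*-/- mice *Ier2* was called without replicate 3 (0.76, adjusted p 0.0211) and, with all mice kept, by DESeq2 (0.55, adjusted p 0.0395), among alternatives from 0.0211 to 0.412. Footprints on *Ier2* were at 20.8, 22.03 and 37.3 CPM in B6J, 30.8, 35.1 and 38.7 CPM for B6J.*Gtpbp1*-/- and 39.2, 36.3 and 29.7 CPM in B6J-*Gtpbp2*-/- mice. B6J replicate 3 was as high as the mutants and the other B6J mice were below all of them, with log2 fold changes of 0.38 (SE 0.251, adjusted p 0.573) and 0.37 (SE 0.240, adjusted p 0.478). When a mouse was left out these ran from 0.23 to 0.70 and from 0.22 to 0.70.

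*Dusp1* encodes a phosphatase that inactivates MAP kinases and so ends the signal that induces the other genes. Its RNA was at 48.1, 73.6 and 54.5 CPM in B6J, 29.0, 22.6 and 46.1 CPM for B6J.*Gtpbp1*-/- and 44.2, 56.9 and 25.5 CPM in B6J-*Gtpbp2*-/- mice. It differed from the other 9 genes in direction, with all B6J.*Gtpbp1*-/- mice below all B6J mice and B6J-*Gtpbp2*-/- mice overlapping both. The log2 fold change was -0.85 (SE 0.321, adjusted p 0.178) for B6J.*Gtpbp1*-/- and -0.47 (SE 0.332, adjusted p 0.496) in B6J-*Gtpbp2*-/- mice, and in the former it was -1.19 (adjusted p 0.00641) and called without B6J.*Gtpbp1*-/- replicate 3. Footprints on *Dusp1* were at 75.4, 33.5 and 167 CPM in B6J, 69.9, 72.9 and 48.4 CPM for B6J.*Gtpbp1*-/- and 51.1, 70.4 and 73.0 CPM in B6J-*Gtpbp2*-/- mice. B6J enclosed the values of both mutants, and the log2 fold changes of -0.53 (SE 0.518) and -0.52 (SE 0.613) were 0.23 and 0.25 without B6J replicate 3. The gene as annotated overlaps *Ergic1* on the opposite strand, 2 pseudogenes and a sense-intronic gene, and between 78.3% and 90.7% of its RNA counts were assigned to protein-coding transcripts, so its RNA values are uncertain to that extent.

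**Figure D2:**
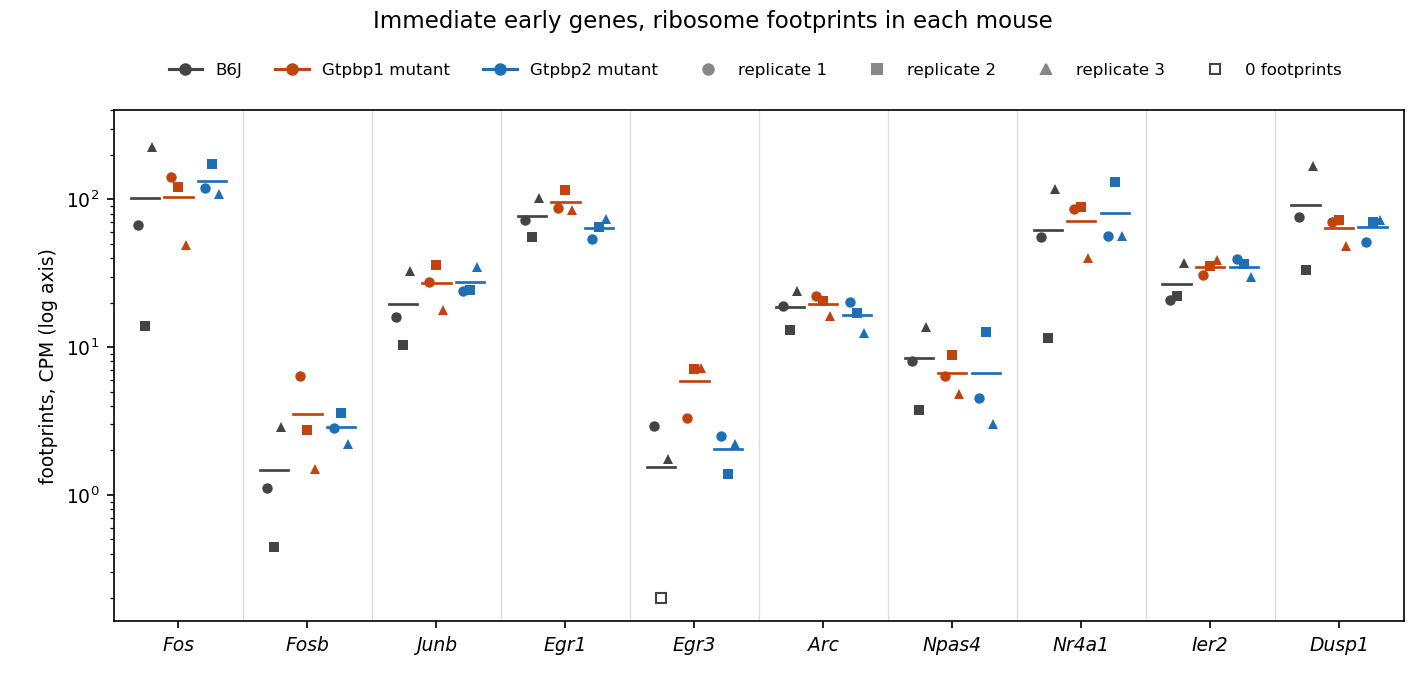
Ribosome footprints on the coding sequence of the 10 immediate early genes in CPM (log axis) for each of 9 mice, by genotype (color) and replicate number (symbol), with a line at the mean of each genotype; the open square at the bottom is a library with 0 footprints on *Egr3*. B6J replicate 2 is the lowest B6J mouse for 9 of the 10 genes and B6J replicate 3 the highest for 9, with *Fos* at 13.9 and 228 CPM.

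The spread between mice of a genotype was measured as the SD of log2 CPM pooled over the 3 genotypes. In RNA all 10 genes had an SD above the median of all 26202 genes, with a median of 0.57 over the 10 genes beside 0.29 over all. In footprints 9 of the 10 had an SD above the median of all 14304 genes, with a median of 0.76 beside 0.31, and *Ier2* was the exception at 0.31. Leaving out each mouse in turn, an alternative chosen after seeing the data, gave 9 or 10 genes in RNA and between 8 and 10 in footprints, with 8 without B6J replicate 2 or B6J replicate 3. The median SD of the 10 genes in footprints was 0.50 without B6J replicate 2 and 0.57 without B6J replicate 3, beside 0.30 and 0.31 over all genes. The spread of all genes falls as their level rises, so each gene was also set beside the genes of similar mean level, in 10 bins of equal size. Against its own bin each of the 10 genes was above the median in both assays, and 9 were in footprints without B6J replicate 2 or B6J replicate 3. In RNA the genes stood between the 93.4th percentile of the bin for *Arc* and the 99.8th for *Nr4a1*, and in footprints between the 64.3rd for *Ier2* and the 99.9th for *Fos*.

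*Nr4a1* and *Fos* were the furthest from genes of their level. The SD of *Nr4a1* was 0.68 in RNA and 1.12 in footprints, where the median of its bin was 0.11 and 0.23. For *Fos* the SD was 0.58 in RNA and 1.27 in footprints, with bin medians of 0.10 and 0.23. Without B6J replicate 2 the footprint SD was 0.69 for *Nr4a1* and 0.79 for *Fos*, with a bin median of 0.22 for each. *Dusp1*, at 0.49 and 0.71, also lay at or above the 99th percentile of its bin in both assays, though in footprints it had 0.45 without B6J replicate 2 and 0.46 without B6J replicate 3, at the 94.3rd and 93.5th percentile. *Egr1* had an SD of 0.31 in RNA and 0.32 in footprints, and it was the gene called in both mutants. In RNA it was level with *Arc*, at 0.32, as the lowest of the 10. Without B6J.*Gtpbp1*-/- replicate 3 *Arc* had 0.24 and *Egr1* 0.34. *Egr3* had an SD of 0.94 in RNA, at a level where the median of the bin was 0.35, and this rests on a single mouse. Without B6J replicate 1 it was 0.35 beside a bin median of 0.33, and in footprints it went from 1.11 to 0.50, the median of its bin, without B6J replicate 2. *Junb* RNA went from 0.68 to 0.39 without B6J-*Gtpbp2*-/- replicate 3, and *Ier2* footprints from 0.31 to 0.17 without B6J replicate 3, below the bin median of 0.26.

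The SD that counting alone would give was set beside the spread between mice, which holds every difference between animals and libraries. In RNA it was 0.02 for *Fos*, against 0.58 observed, and 0.15 for *Egr3*, against 0.94. In footprints it was larger for the genes with few counts, 0.41 for both *Fosb* and *Egr3*, where the observed SD was 2.04 and 2.72 times as large. For *Fos* the observed SD in footprints was 22.4 times that of counting.

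**Figure D3:**
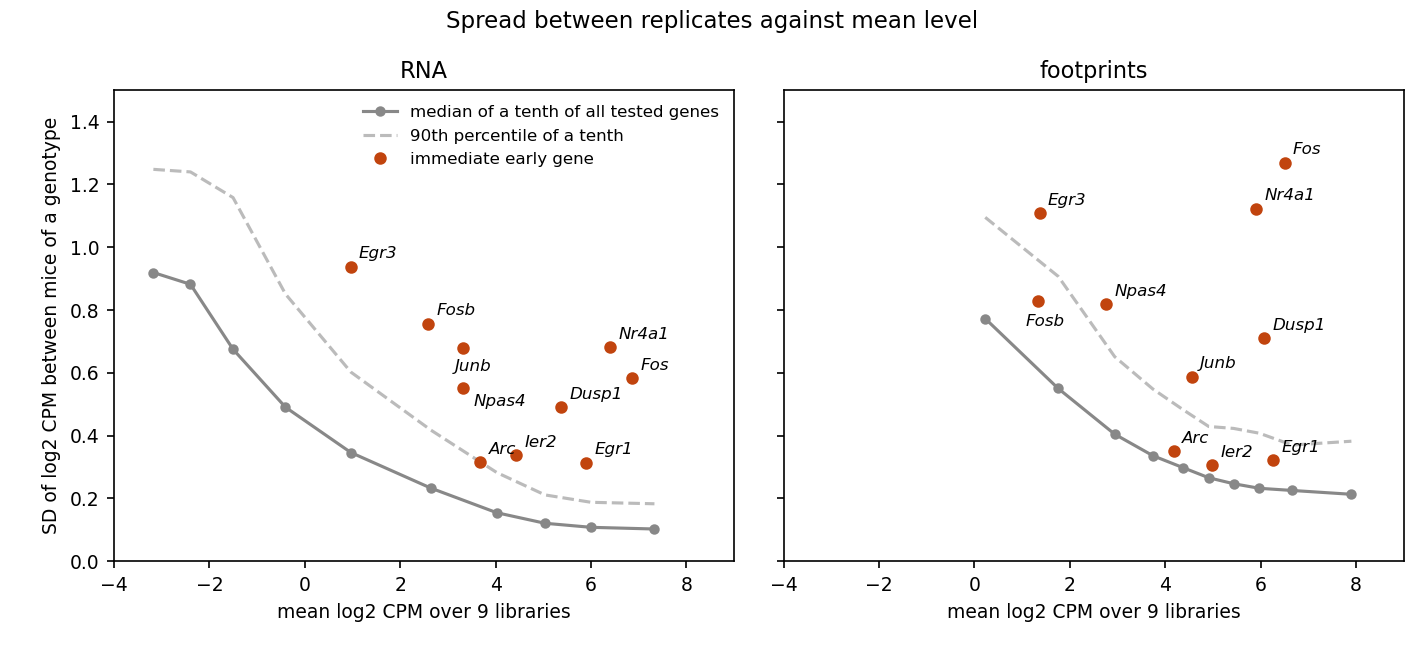
SD of log2 CPM between mice of the same genotype, pooled over 3 genotypes, against the mean log2 CPM of the gene, in RNA and footprints. Orange points are the 10 immediate early genes, the grey line joins the medians of 10 bins of all tested genes by level, and the dashed line their 90th percentiles; *Fos* lies at an SD of 0.58 in RNA and 1.27 in footprints, where the bin medians are 0.10 and 0.23.

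The genotype with the widest spread was not the same in the 2 assays. In RNA the SD was largest in B6J-*Gtpbp2*-/- mice for 6 of the 10 genes, *Fos*, *Fosb*, *Junb*, *Nr4a1*, *Ier2* and *Dusp1*, and the median SD of the 10 genes was 0.40 in B6J, 0.53 for B6J.*Gtpbp1*-/- and 0.59 for B6J-*Gtpbp2*-/-. The same medians over all genes were 0.26, 0.21 and 0.23. In footprints the SD was largest in B6J mice for 9 of the 10, all but *Npas4*, with medians of 0.97 in B6J, 0.46 for B6J.*Gtpbp1*-/- and 0.33 in B6J-*Gtpbp2*-/- mice beside 0.28, 0.29 and 0.24 over all genes. Whether the genotypes differ in spread was not tested, with 3 mice in each.

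In some libraries most of the 10 genes were the highest or the lowest of their genotype, and in others they were split. These counts were not set beside those of all genes. In RNA, B6J replicate 1 was the lowest of the B6J mice for 8 of the 10 genes, all but *Junb* and *Arc*. B6J replicate 2 was the highest for 7, as were B6J.*Gtpbp1*-/- replicate 3 and B6J-*Gtpbp2*-/- replicate 2, and *Fos*, *Fosb*, *Npas4*, *Nr4a1*, *Ier2* and *Dusp1* were among the 7 each time. *Arc* went against the rest, and was lowest in each of these 3 libraries. The summed level of the 10 genes ranged from 212 CPM in B6J replicate 1 to 698 CPM in B6J-*Gtpbp2*-/- replicate 2 in RNA. In footprints it ranged from 164 CPM in B6J replicate 2 to 728 CPM in B6J replicate 3, so that 2 control mice held the extremes of the 9, with the mutants between 309 and 532 CPM. B6J replicate 2 was the lowest B6J mouse for 9 genes, all but *Ier2*, and B6J replicate 3 the highest for 9, all but *Egr3*. B6J.*Gtpbp1*-/- replicate 3 was the lowest of its genotype for 8. In B6J-*Gtpbp2*-/- footprints replicates 1, 2 and 3 were highest for 3, 4 and 3 genes and lowest for 4, 1 and 5. In RNA the mutants were split at the low end, lowest for 4, 4 and 2 genes in B6J.*Gtpbp1*-/- and 4, 1 and 5 in B6J-*Gtpbp2*-/- replicates 1, 2 and 3.

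**Figure D4:**
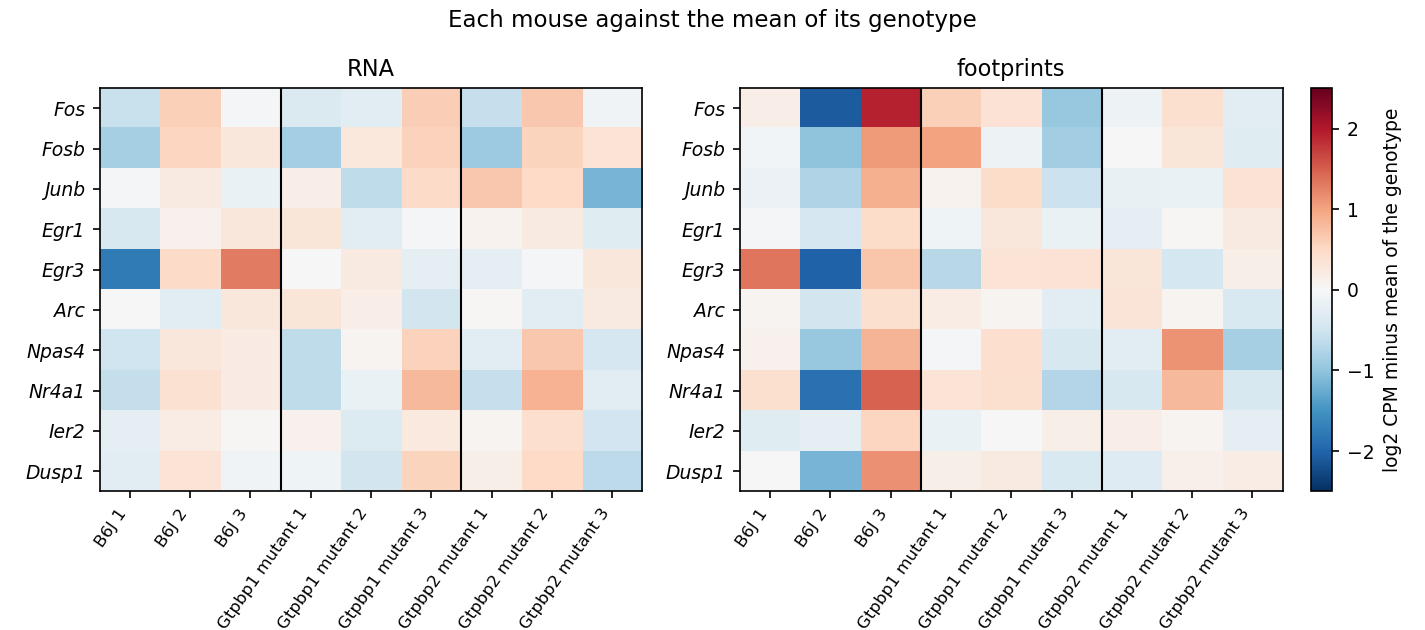
Log2 CPM of each of the 10 immediate early genes in each mouse minus the mean of its genotype, for 9 RNA libraries (left) and 9 footprint libraries (right); red is above and blue below the genotype's mean. B6J replicate 1 is the lowest B6J mouse for 8 genes in RNA, and B6J replicates 2 and 3 are the lowest and the highest for 9 genes each in footprints.

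Cell markers differed between the same mice. In RNA, B6J replicate 2, B6J.*Gtpbp1*-/- replicate 3 and B6J-*Gtpbp2*-/- replicate 2 each had the highest sum of Purkinje cell markers in its genotype, at 8827, 7397 and 6519 CPM. These 3 mice were also highest within their genotype in the sum of granule cell markers (4966, 3422 and 3436 CPM) and of markers of astrocytes and Bergmann glia (3422, 3073 and 3029 CPM), and lowest in that of oligodendrocyte markers (8403, 6159 and 7708 CPM). Pearson's r of log2 CPM across genes, which are not independent replicates, between a library and the others of its genotype averaged 0.964, 0.970 and 0.962 for B6J replicates 1, 2 and 3 in RNA and 0.962, 0.952 and 0.958 in footprints. Mitochondrial genes held 5.93%, 5.61% and 6.18% of the B6J RNA counts and 0.342%, 0.595% and 1.07% of the B6J footprint counts. The RNA libraries of the mutants differed from those of B6J in these measures, with r between 0.978 and 0.982, mitochondrial shares between 4.42% and 5.04%, and TMM factors between 1.01 and 1.05 beside 0.921 to 0.966 in B6J. Whether this bears on the fold changes was not tested. The 6 granule cell markers summed to 2705, 4579 and 3439.7 CPM in the footprints of B6J replicates 1, 2 and 3, highest in the mouse with the lowest immediate early genes, and the 5 Purkinje cell markers to 8994, 5907 and 12412 CPM, lowest in that mouse. Transthyretin (*Ttr*), the most abundant of 4 choroid plexus markers, led sums of 5590.1, 3729 and 63.6 CPM in these libraries. The part of tissue composition in the spread of the 10 genes was not tested.

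Ribosome footprints relative to RNA, or translational efficiency (TE), were tested as the interaction of assay and genotype. In B6J.*Gtpbp1*-/- mice, edgeR called 0 of the 10 genes and DESeq2 0, with 0 at an unadjusted p under 0.05 (8.94% of all genes), where edgeR called 0% of 13086 genes. For B6J-*Gtpbp2*-/- mice, edgeR called 0 and DESeq2 1, *Egr1*, with 1 at an unadjusted p under 0.05 (12.02% of all genes), where edgeR called 0.00773% and DESeq2 1.24% of 12931 genes. For *Egr1* the log2 change of TE was -0.65 (SE 0.326, adjusted p 0.578) for B6J.*Gtpbp1*-/- and -1.36 (SE 0.321, adjusted p 0.159) in B6J-*Gtpbp2*-/- mice, and DESeq2 gave an adjusted p of 0.0105 for the latter, among alternatives from 0.0105 to 0.439. Its RNA was thus above B6J in all 6 mutant mice while its footprints overlapped B6J, and this difference between the assays did not pass edgeR's test. For *Npas4* the change of TE was -1.13 (SE 0.567, adjusted p 0.583) and -0.92 (SE 0.739, adjusted p 0.655). The median over the 10 genes was -0.18 for B6J.*Gtpbp1*-/- and -0.64 in B6J-*Gtpbp2*-/- mice, beside 0.03 over all genes in both. Of the 10 genes 4 and 0 had a change above 0, beside 54.2% and 52.7% of all genes tested. The counts of the 10 were between 1 and 6 and between 0 and 5 when a replicate number of a genotype was left out.

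Other genes were taken from 3 lists, of other activity-regulated genes, late response genes and upstream regulators. Whether they followed neuronal activity in these mice was not tested. Of all genes tested in RNA, 1449 of 24577 rose and 1949 fell for B6J.*Gtpbp1*-/-, and 898 of 24859 rose and 1248 fell for B6J-*Gtpbp2*-/-. In footprints 80 of 13956 rose and 24 fell for B6J.*Gtpbp1*-/-, and 176 of 13797 rose and 230 fell for B6J-*Gtpbp2*-/-. Of 37 other activity-regulated genes, 7 rose and 2 fell in B6J.*Gtpbp1*-/- RNA and 7 rose and 1 fell in B6J-*Gtpbp2*-/- RNA, with medians of 0.08 and 0.22 on the log2 scale. The number that rose was 4 without B6J.*Gtpbp1*-/- replicate 2 or 3 and, in the other mutant, 4 without B6J-*Gtpbp2*-/- replicate 2 or 3. The number that fell was 4 without B6J.*Gtpbp1*-/- replicate 3, and in the other mutant 2 without B6J-*Gtpbp2*-/- replicate 2 and 0 without its replicate 1 or B6J replicate 1 or 2. *Dusp4*, a phosphatase related to *Dusp1*, rose by 1.13 (SE 0.155, adjusted p 0.000339) and 1.44 (SE 0.165, adjusted p 0.000437) and *Klf10* by 0.74 (SE 0.118, adjusted p 0.000967) and 0.62 (SE 0.107, adjusted p 0.00514). *Jun*, which encodes an AP-1 partner of the Fos proteins, had -0.87 (SE 0.151, adjusted p 0.00459) and -0.86 (SE 0.195, adjusted p 0.0332), the latter not called without B6J replicate 1 (-0.74), B6J replicate 2 (-0.82), B6J-*Gtpbp2*-/- replicate 1 (-0.78) or B6J-*Gtpbp2*-/- replicate 3 (-0.75). *Jund* had -1.21 (SE 0.144, adjusted p 0.000214) and -0.85 (SE 0.359, adjusted p 0.254, called without B6J-*Gtpbp2*-/- replicate 3 at -0.53), with an adjusted p of 1.00 between the mutants. *Gem* had 1.497 (SE 0.415, adjusted p 0.0297) and 2.12 (SE 0.406, adjusted p 0.00895), the former not called without B6J replicate 1 (1.53), B6J replicate 2 (1.23), B6J.*Gtpbp1*-/- replicate 2 (1.24) or B6J.*Gtpbp1*-/- replicate 3 (1.40). *Plk3* had 0.38 (SE 0.134, adjusted p 0.0788, called without B6J replicate 3 at 0.45) and 0.60 (SE 0.138, adjusted p 0.0206), the latter not called without B6J replicate 1 (0.50), B6J replicate 2 (0.64) or B6J-*Gtpbp2*-/- replicate 3 (0.54), and an adjusted p of 1.00 between the mutants.

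Of 14 late response genes, which follow the immediate early genes, 2 rose and 3 fell in B6J.*Gtpbp1*-/- RNA and 2 rose and 2 fell in B6J-*Gtpbp2*-/- RNA, with medians of -0.12 and -0.10. The number that fell was 1 without B6J.*Gtpbp1*-/- replicate 1 or 2 in the former, and 1 without B6J replicate 2 or any B6J-*Gtpbp2*-/- replicate in the latter. *Bdnf* rose by 1.34 (SE 0.138, adjusted p 6.4e-05) and 1.34 (SE 0.183, adjusted p 0.00288) and *Cdkn1a* by 1.87 (SE 0.166, adjusted p 0.000214) and 1.69 (SE 0.186, adjusted p 0.00146), and both calls held when any mouse was left out. *Penk* had -0.55 (SE 0.102, adjusted p 0.00294) and -0.66 (SE 0.124, adjusted p 0.00863, not called without B6J replicate 2 at -0.62). *Syt4* had -0.42 (SE 0.0983, adjusted p 0.0122) in B6J.*Gtpbp1*-/- mice, not called without B6J replicate 2 (-0.36), B6J.*Gtpbp1*-/- replicate 1 (-0.37) or B6J.*Gtpbp1*-/- replicate 2 (-0.39), and -0.32 (SE 0.0935, adjusted p 0.0583) in B6J-*Gtpbp2*-/- mice. *Nrn1* had -0.997 (SE 0.230, adjusted p 0.0418) and -0.92 (SE 0.196, adjusted p 0.0304), and was called in neither without replicate 1, 2 or 3 of the mutant (-0.92, -1.09 and -0.99 in the former, -0.94, -0.88 and -0.95 in the latter).

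Of 39 upstream regulators, among them receptors, kinases and the factors CREB and SRF, 3 rose and 12 fell in B6J.*Gtpbp1*-/- RNA (1449 and 1949 of all 24577 genes tested) and 4 rose and 8 fell in B6J-*Gtpbp2*-/- RNA (898 and 1248 of all 24859), with medians of -0.0043 and -0.0041. The number that fell stayed between 9 and 12 in the former, and in the latter it was 5 without B6J-*Gtpbp2*-/- replicate 3, B6J replicate 1 or B6J replicate 2, with 2 rising without B6J replicate 1. The calcium-activated kinase kinase *Camkk2* fell by 0.95 (SE 0.0824, adjusted p 8.2e-06) and 0.79 (SE 0.0907, adjusted p 0.000460) and the NMDA receptor gene *Grin2c* by 0.53 (SE 0.0696, adjusted p 0.000233) and 0.50 (SE 0.0792, adjusted p 0.00288), on the log2 scale. *Mef2a* rose by 0.62 (SE 0.0806, adjusted p 0.000209) and 0.43 (SE 0.0888, adjusted p 0.0122), the latter not called without B6J replicate 1 (0.43, adjusted p 0.0671), and *Rps6ka2* by 0.61 (SE 0.0871, adjusted p 0.000450) and 0.67 (SE 0.0830, adjusted p 0.000729). *Rps6ka1* fell by 0.52 in both (SE 0.0790 and 0.0725, adjusted p 0.000696 and 0.00146), and *Camk4* by 0.80 (SE 0.202, adjusted p 0.0467) and 0.75 (SE 0.111, adjusted p 0.00193), the former not called without B6J replicate 1 (-0.74) or 2 (-0.74) or B6J.*Gtpbp1*-/- replicate 1 (-0.67) or 2 (-0.71). Between the mutants, edgeR and DESeq2 called 0 genes of the 3 lists in RNA, with 4, 0 and 1 at an unadjusted p under 0.05 (3.57% of all genes). The medians there were -0.13, -0.02 and -0.03. Against B6J in RNA, DESeq2 called 12, 7 and 15 genes of the 3 lists for B6J.*Gtpbp1*-/- and 13, 6 and 16 for B6J-*Gtpbp2*-/-. Of all genes it called 17.5% and 13.6%.

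In footprints of B6J.*Gtpbp1*-/- mice 1 gene of the 3 lists was called by edgeR, *Camk4* (lower; 0 without B6J replicate 1, B6J replicate 2 or B6J.*Gtpbp1*-/- replicate 1 or 2 and 3 without either of the others), and without B6J replicate 3 the number of other activity-regulated genes that rose was 2. Without B6J.*Gtpbp1*-/- replicate 3 it was 1, and 1 late response gene, *Cdkn1a*, rose without B6J.*Gtpbp1*-/- replicate 2 or 3. With a mouse left out, edgeR called between 0.159% and 1.34% of all genes, the latter without B6J replicate 3. At an unadjusted p under 0.05 were 8 other activity-regulated genes, 4 late response genes and 9 upstream regulators, and DESeq2 called 1, *Atf3* (chosen after its values were seen), 1, *Cdkn1a*, and 7 of them, with *Camk4* among the 7. Of all genes 12.6% were at such a p and DESeq2 called 2.94%. In footprints of each mutant against B6J 35 of the 37 other activity-regulated genes were tested. The medians of the 3 lists were 0.21, 0.01 and -0.20. In those of B6J-*Gtpbp2*-/- mice *Dusp4* and *Cdkn1a* rose and *Dusp5*, *Nrn1*, *Camkk2*, *Camk2b*, *Rps6ka1* and *Mapk3* fell, of which *Dusp5*, *Camk2b* and *Mapk3* were chosen after their values were seen. DESeq2 called 6, 2 and 5 genes of the lists, and 15, 4 and 12 were at an unadjusted p under 0.05. The medians were 0.28, 0.01 and -0.13. Without B6J replicate 3, 7 of the other activity-regulated genes and 2 of the upstream regulators rose, and without B6J replicate 1, 3 of the former fell, while 0 of the upstream regulators fell without B6J replicate 2 or B6J-*Gtpbp2*-/- replicate 2 or 3, 1 without its replicate 1 and 2 without B6J replicate 1. Of all genes edgeR called 4.54% without B6J replicate 3 and between 0.779% and 2.17% without any other mouse. The calls in the other lists were all lost without B6J replicate 2, and all but that of *Cdkn1a* without B6J-*Gtpbp2*-/- replicate 1 or 2. Between the mutants in footprints edgeR and DESeq2 called 0 genes of the 3 lists (5, 0 and 2 at an unadjusted p under 0.05, beside 10.8% of all genes), with medians of 0.0035, -0.02 and 0.01. For TE edgeR called 0 of them in either mutant. At an unadjusted p under 0.05 were 2, 1 and 6 genes of the lists for B6J.*Gtpbp1*-/- (8.94% of all genes) and 2, 3 and 9 for B6J-*Gtpbp2*-/- (12.02%). DESeq2 called *Mef2a* in the former and *Klf10* in the latter, where it called 0.443% and 1.24% of all genes. The medians of the lists were 0.27, 0.06 and -0.15 for B6J.*Gtpbp1*-/- and -0.04, -0.08 and -0.21 in B6J-*Gtpbp2*-/- mice.

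AGA codons, which the impaired tRNA reads, were counted in the coding sequences of the 10 genes. *Junb*, *Egr3*, *Arc* and *Nr4a1* have 0, *Egr1*, *Ier2* and *Dusp1* have 1, *Npas4* has 4 and *Fos* and *Fosb* have 5 each. Per 1000 codons, *Fos* with 13.2 and *Fosb* with 14.8 lay above the median of 10.1 over 14260 genes with footprints, and the other 8 lay below it, in the principal coding transcript of Gencode. The median of the 10 genes was 2.30.

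The genes whose RNA followed the 10 most closely were sought over the 9 RNA libraries, by Pearson's r between a gene and the mean of the 10 genes, each centered on its genotype, among 14344 genes. The 10 closest outside the list were *Jph1*, *Rad23b*, *Rnf10*, *Yjefn3*, *B4galt6*, *Tysnd1*, *Itgbl1*, *Eva1b*, *Lhfp* and *Nf2*, with r from 0.95 to 0.98. With 9 libraries and this many genes, such values describe these mice alone. Of the immediate early genes, which are part of that mean, *Nr4a1* with 0.91, *Npas4* with 0.90 and *Fos* with 0.88 were closest to the mean and *Arc* was furthest, with -0.57. *Egr3* was too low to be ranked. In footprints, among 12864 genes, *Fos* with 0.99 and *Nr4a1* with 0.98 were closest to the mean and *Ier2* with 0.56 furthest, and *Arc* had 0.81, so its run against the mean was seen in RNA alone.

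Promoter sequences were looked at next, and those of *Fos*, *Npas4*, *Nr4a1* and *Dusp1* are printed below. These genes were the highest of their genotype in the same 3 RNA libraries, but so were *Fosb* and *Ier2*. The *Fosb* promoter was searched as well and is not printed. Whether promoter sequence bears on how these genes moved between mice was not tested. The table of RefSeq promoters (build GRCm38.p6, 250 bases before to 50 after the start that RefSeq gives) held 6 of the 10 genes. For *Npas4*, *Nr4a1* and *Dusp1* the gene of Gencode begins further upstream than the window, so these 3 windows lie inside the gene as Gencode draws it. The core of the CREB binding site, TGACG, was found on either strand in all 6, and in 20.8% of 32851 promoters. The full palindrome TGACGTCA, which contains the core, was found in 1 of the 6, *Dusp1*, and in 1.79% of all. TATAAA was found in 2, *Fos* and *Junb*, and in 13.6% of all, whereas the AP-1 site TGACTCA (5.20% of all), the site GCGTGGGCG of the EGR family (0.612%) and the CArG box of SRF (1.63%) were found in 0 of the 6 windows. A match is a description of letters and not a site shown to be used. A count of 0 covers these windows alone, since sequence further upstream and the genes without an entry were not searched. The 4 sequences below run 5′ to 3′ on the strand of the gene, at chr12:85473640-85473939 on the plus strand for *Fos*, chr19:4989922-4990221 on the minus strand for *Npas4*, chr15:101266596-101266895 on the plus strand for *Nr4a1* and chr17:26508423-26508722 on the minus strand for *Dusp1*, with the core or the palindrome on either strand in capitals.
Fos: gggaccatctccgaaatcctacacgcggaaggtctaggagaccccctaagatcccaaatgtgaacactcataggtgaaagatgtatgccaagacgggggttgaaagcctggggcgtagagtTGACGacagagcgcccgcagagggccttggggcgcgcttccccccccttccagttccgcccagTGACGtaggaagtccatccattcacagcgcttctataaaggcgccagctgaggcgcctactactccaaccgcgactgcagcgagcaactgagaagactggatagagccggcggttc
Npas4: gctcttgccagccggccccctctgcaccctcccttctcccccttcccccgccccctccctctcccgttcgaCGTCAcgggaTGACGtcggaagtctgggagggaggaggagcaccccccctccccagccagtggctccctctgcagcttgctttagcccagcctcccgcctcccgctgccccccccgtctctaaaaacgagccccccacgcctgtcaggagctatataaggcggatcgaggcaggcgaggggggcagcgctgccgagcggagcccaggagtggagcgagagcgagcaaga
Nr4a1: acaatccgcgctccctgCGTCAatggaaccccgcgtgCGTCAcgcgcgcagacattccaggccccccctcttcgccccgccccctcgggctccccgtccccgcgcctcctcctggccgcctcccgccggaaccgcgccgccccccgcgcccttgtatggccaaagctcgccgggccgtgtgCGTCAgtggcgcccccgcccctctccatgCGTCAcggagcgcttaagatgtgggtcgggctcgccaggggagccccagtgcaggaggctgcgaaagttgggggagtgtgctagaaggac
Dusp1: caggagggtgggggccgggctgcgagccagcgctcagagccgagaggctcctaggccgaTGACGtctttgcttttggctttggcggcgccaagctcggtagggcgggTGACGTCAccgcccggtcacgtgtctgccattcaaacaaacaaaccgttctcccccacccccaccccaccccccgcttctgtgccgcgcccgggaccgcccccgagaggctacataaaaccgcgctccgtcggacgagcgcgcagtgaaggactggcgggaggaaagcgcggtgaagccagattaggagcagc

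In Gencode M21 on GRCm38 the genes lie on 8 chromosomes, with *Junb* and *Ier2* both on chromosome 8 and *Arc* and *Nr4a1* both on chromosome 15. *Fos* runs from 85473890 to 85477273 on chromosome 12, *Egr1* from 34859823 to 34864984 on chromosome 18 and *Ier2* from 84661331 to 84662852 on chromosome 8. *Junb* and *Ier2* have coding transcripts of 1 exon, and *Npas4* and *Nr4a1* of 8. The promoter table had no entry for *Egr1*, *Egr3*, *Arc* or *Ier2*.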

How the data were processed

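RNA-seq and ribosome profiling libraries from the cerebellum of 3 mice for each of 3 genotypes, 18 libraries in all, were read as deposited. For RNA, the authors quantified reads with kallisto 0.42.4 per the submitters' processing notes, and the deposited files hold estimated counts per transcript. The deposited RNA files also give TPM per transcript, which the authors obtained with kallisto from the same estimates. For footprints, the authors aligned reads with Bowtie2 2.2.3 and HISAT2 2.1.0 per the same notes, counted them with featureCounts, and deposited the count of footprints per gene. Depth is the total of each file, and counting error per gene follows from its counts.

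Estimated counts were summed per gene and rounded. Each pair of genotypes was tested in its own 6 libraries with edgeR 4.0.16 in R 4.3.3 (quasi-likelihood test, robust, TMM), after genes under 5 counts in more than 3 of them were dropped, with Benjamini-Hochberg adjustment over all tested genes and a threshold of 0.05. Translational efficiency was the interaction of assay and genotype in 12 libraries, with a minimum of 10 counts in 3 or more libraries per assay and histone genes removed. CPM was normalized over the 9 libraries of an assay, and log2 CPM used a prior count of 2. Spread is the SD within a genotype, pooled over 3 genotypes. A mouse was taken as male above 100 counts of *Ddx3y*. Tables and figures used Python 3.11.15, numpy 2.4.6, pandas 2.3.3, scipy 1.17.1 and matplotlib 3.10.9.

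As alternatives, results were recomputed with DESeq2 1.42.0, with upper quartile scaling, no filter or edgeR's own filter, all 9 libraries in one model, the replicate number as a block, sex as a term, an offset for transcript length (RNA), and leaving out each library. For translational efficiency they were DESeq2, upper quartile, a minimum of 5 counts, all 18 libraries, the block and leaving out libraries.

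The genes and lists were chosen with earlier results of these data known. Named are the 10 genes, *Gtpbp1* and *Gtpbp2*, *Ddx3y*, up to 4 genes with the smallest p in each mutant's RNA from each of 3 lists (other activity-regulated genes, late response genes, upstream regulators), the most abundant gene and those at 0 of each of 11 marker lists (granule cells, Purkinje cells, forebrain neurons, astrocytes and Bergmann glia, oligodendrocytes, microglia, endothelium, red blood cells, choroid plexus, bone and muscle, meningeal fibroblasts), and the 10 genes closest to the mean of the 10.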

Additional observations from a re-analysis of the deposited data

How the results depend on the processing

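Fold changes of single genes under the alternatives were counted for the 10 genes against B6J in RNA and footprints. Between the mutants they were counted for *Egr3* and *Ier2* RNA and *Egr1* and *Egr3* footprints, and for translational efficiency for *Egr1* and *Npas4*. The other fold changes between the mutants and of translational efficiency are not in these counts. The direction and side of the threshold were kept in 569 cases, while 25 became called, 12 lost the call and 32 turned sign. For the other genes named these numbers were 480, 7, 42 and 1. The cause of the changes was not tested, except that leaving out a mouse gives fewer samples.

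The number of the 10 genes called in B6J.*Gtpbp1*-/- RNA, 2 (13.8% of all genes), was 4 with DESeq2 (17.5%), 6 with no filter (11.9%), 1 with all 9 libraries in one model (13.97%), 1 with sex as a term (9.36%) (*Egr1* and *Ier2*, respectively), and 1 to 3 when a mouse was left out, the 1 without B6J.*Gtpbp1*-/- replicate 3 being *Dusp1*. With the replicate number as a block (9.1%) it stayed at 2, but of different genes, *Fosb* and *Npas4*, with *Egr1* and *Ier2* lost. In B6J-*Gtpbp2*-/- RNA it was 1 (8.63% of all genes), and became 4 with DESeq2 (13.6%), 0 with no filter (7.92%), 3 with the block (8.57% of all genes; *Fos*, *Fosb* and *Egr3*, with *Egr1* lost) and 1 to 3 when a mouse was left out, where the 1 gene called without B6J-*Gtpbp2*-/- replicate 1 was *Fosb* and not *Egr1*. The block assumes that replicate numbers pair mice, which the labels do not state. In B6J-*Gtpbp2*-/- footprints it was 0 to 1 when a mouse was left out, the 1 without B6J replicate 3 (4.54% of all genes). For translational efficiency in B6J-*Gtpbp2*-/- mice it was 1 with DESeq2 (1.24% of all genes).

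Among single values, sex as a term turned *Arc* RNA in B6J.*Gtpbp1*-/- mice to -0.015. All B6J-*Gtpbp2*-/- mice were female. In their footprints a term for sex leaves B6J replicate 3, the only female B6J mouse, as the whole control group, so that 5 of the 32 turned signs (*Fos* at -0.78, *Fosb* at -0.036, *Junb* at -0.25, *Nr4a1* at -0.57 and *Ier2* at -0.11) compare the mutant with this mouse alone and are no adjustment for sex. In RNA it leaves B6J replicates 1 and 3. With all 9 libraries in one model *Fos* footprints in B6J.*Gtpbp1*-/- mice were at -0.0040. An offset for transcript length took *Gtpbp1* RNA in B6J.*Gtpbp1*-/- mice from -0.73 to -0.29, which lost its call (adjusted p 0.100225, over alternatives from 2.7e-13), and gave 0.32 for *Gtpbp2* RNA in B6J-*Gtpbp2*-/- mice and 0.10 for *Egr3* RNA between the mutants.

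Leaving out a mouse gave ranges across 0. In RNA these were -0.11 to 0.23 for *Arc* and -0.092 to 0.69 for *Nr4a1* in B6J.*Gtpbp1*-/-, -0.013 to 0.63 for *Npas4* in B6J-*Gtpbp2*-/-, and -0.15 to 0.30 for *Ier2* between the mutants. In B6J.*Gtpbp1*-/- footprints they were -0.50 to 1.37 for *Fos*, -0.13 to 0.29 for *Arc*, -0.70 to 0.19 for *Npas4*, -0.28 to 1.09 for *Nr4a1* and -0.93 to 0.23 for *Dusp1*. In B6J-*Gtpbp2*-/- footprints they were -0.16 to 1.72 for *Fos*, -0.46 to 0.0034 for *Egr1*, -0.14 to 1.11 for *Egr3*, -0.39 to 0.039 for *Arc*, -1.20 to 0.10 for *Npas4*, -0.14 to 1.24 for *Nr4a1* and -0.92 to 0.25 for *Dusp1*. Depth limits the footprints of *Fosb* (2 to 44 counts) and *Egr3* (0 to 62 counts).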
